A study of Mus musculus with 4 samples.

Results

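The mitochondrial ribosome and the factors that copy, transcribe and translate the mitochondrial genome were examined after RNA interference against Npac in mouse embryonic stem cells. Members were the genes whose array annotation gave a single symbol beginning with Mrpl or Mrps and a digit, together with 15 named factors. All 15 factors were measured, with 47 Mrpl genes, counted as large subunit, and 29 Mrps genes, counted as small subunit; the classes follow the symbols. This made 91 of the 18193 genes on the array, read by 183 probe sets. Mrpl30 and Mrpl53 were named only by probe sets that also carried another gene symbol, and they are not analysed here.

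Both groups were E14 cells, an established mouse embryonic stem cell line grown in 15% serum and 1000 units per ml of LIF, the cytokine that maintains the undifferentiated state. The Npac RNAi group received a short hairpin RNA against Npac (now Glyr1, a nucleosome-binding chromatin protein). The control RNAi group is labelled as a control knockdown, and the sources used here do not describe its hairpin; the treatment text names the Npac hairpin for all 4 samples. Each group had 2 arrays of total RNA, taken after 3 days of puromycin selection begun 24 hours after transfection. Nothing in the labels says that the 2 samples of a group came from separate cultures, so p-values measure the spread between these samples, which may be technical. Glyr1 stood at 11.30 and 11.32 on the control arrays and at 10.23 and 10.20 on the Npac arrays (log2 scale), a difference of -1.09 (SE 0.0458, limma adjusted p = 0.00101).

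Mitochondria hold a small genome of their own, which encodes core subunits of the respiratory chain and the RNA parts of a separate ribosome. Every protein of that ribosome is encoded in the nucleus, made in the cytosol and imported. Tfam packages mitochondrial DNA, Polrmt transcribes it, and a set of bacterial-type initiation and elongation factors drives translation. Embryonic stem cells rely strongly on glycolysis and have immature mitochondria, and mitochondrial mass and respiration rise as they differentiate.

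The members moved little, and not in one direction. Of the 91 genes, 31 passed the limma test at an adjusted p under 0.05, 13 higher and 18 lower in Npac RNAi, or 34.1% against 40.8% of all genes tested. By direction 14.3% were higher and 19.8% lower, against 22.1% and 18.7% of all genes. The median log2 difference (Npac RNAi minus control RNAi) was -0.04 for the members and -0.04 for all genes. The interquartile range of the members ran from -0.17 to 0.07, and that of all genes from -0.21 to 0.19. The median member stood at 10.90 and 10.89 on the control arrays and at 10.78 and 10.79 on the Npac arrays. Over all genes the array medians moved the other way, from 7.43 and 7.42 in control RNAi to 7.56 and 7.58 in Npac RNAi. In 37 members the difference was smaller than 0.1, and 1 member, Mrpl15, changed by at least 1.5-fold with a call, against 10.1% of all genes. The 2 arrays of one group lay wholly above or below those of the other in 74 members (81.3%), against 74.2% of all genes.

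The deposited values had been equalised between arrays, so each difference is read against the typical transcript. The 24 poly-A spike-in probe sets, which read bacterial transcripts added to the RNA, stood 0.54 higher on the Npac arrays. With scaling on them 0 members were higher and 89 lower, against 4.98% and 81.9% of all genes. This scaling lowered every difference by the same 0.54. All 13 rises were smaller than that, so each was bound to turn negative, which is no test of a single gene. The same applies to each rise under 0.54 given below with a spike-in value. A fall was likewise bound to stay negative. Centring each array on its median moved the median difference over all genes from -0.04 to -0.18 and gave 2 members higher and 50 lower, against 15.6% and 39.4% of all genes. All 91 members were at least as bright as the median gene (7.49). Among genes at least that bright 48 members were called (52.7%), 17 higher and 31 lower, against 68.6% of those genes, 42.1% higher and 26.5% lower.

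**Figure D1:**
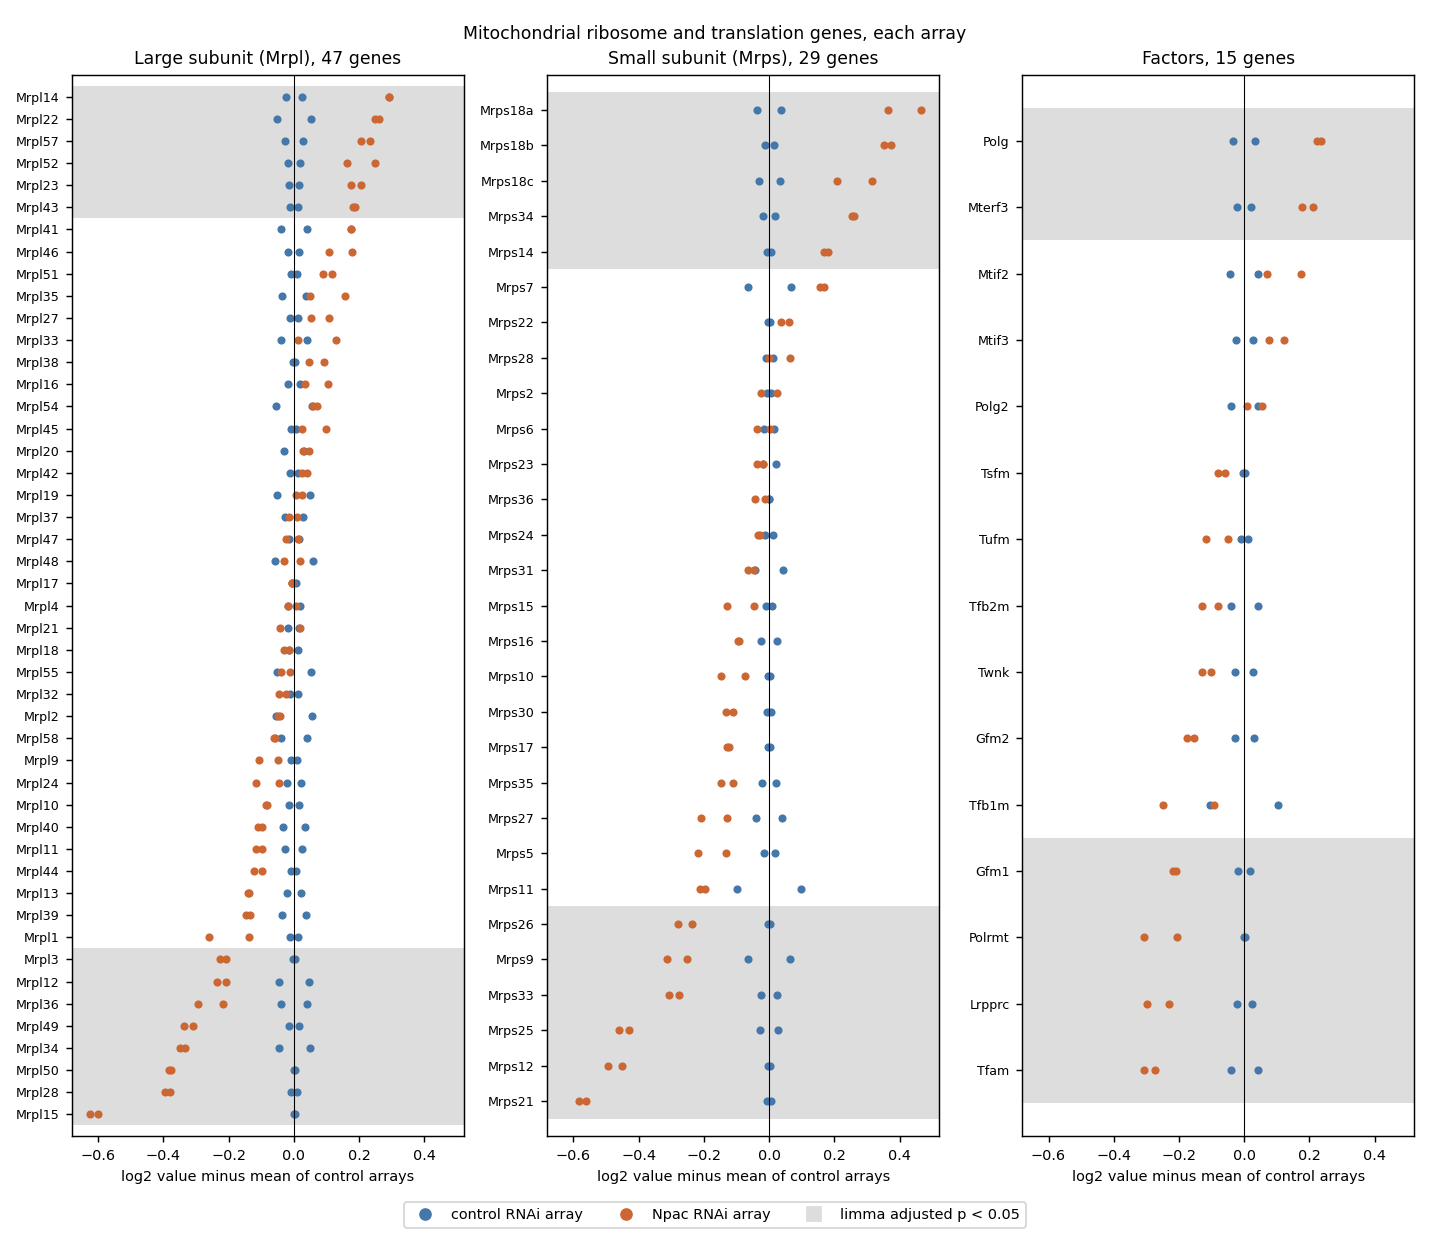
Log2 value of every member on each array minus the mean of the 2 control arrays (horizontal axis), for 47 large subunit genes, 29 small subunit genes and 15 factors ordered by their difference. Blue points are control RNAi arrays, orange points Npac RNAi arrays, and grey bands mark limma adjusted p under 0.05; the 13 called rises have a negative sign with spike-in scaling.

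**Figure D2:**
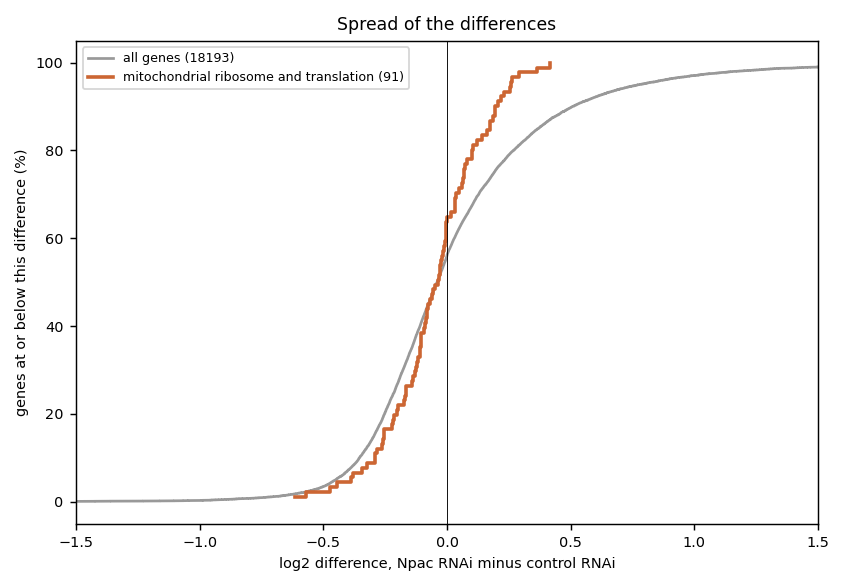
Cumulative share of genes (vertical axis, percent) at or below each log2 difference between Npac RNAi and control RNAi (horizontal axis, cropped on both sides). The orange line for the 91 members crosses the middle near the grey line for all 18193 genes and ends at 0.42, while the grey line continues to the right.

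Among the large subunit genes 8 fell, 6 rose and 33 had no call (median -0.01), against 18.7% lower and 22.1% higher over all genes. Mrpl15, the counterpart of a bacterial protein of the large subunit core, changed most. It stood at 12.50 and 12.49 on the control arrays and at 11.87 and 11.89 on the Npac arrays (log2 difference -0.61, SE 0.0457, limma adjusted p = 0.00258, n = 2 per group), leaving 65.3% of the control level. The groups did not overlap. Its probe set is of the x_at kind, which may also read related sequences, and its other probe sets differed among themselves. Next came Mrpl28, which has a bacterial homologue, at 11.41 and 11.43 in control RNAi and 11.04 and 11.02 in Npac RNAi (-0.39, SE 0.0455, limma adjusted p = 0.00646). Mrpl50, a subunit without a bacterial counterpart, stood at 10.09 and 10.08 in control RNAi and at 9.70 and 9.71 in Npac RNAi (-0.38, SE 0.0449, limma adjusted p = 0.00654). In these 3 genes both Npac arrays lay clearly below both control arrays.

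Other large subunit genes fell by less. Mrpl34 fell by 0.34, Mrpl49 by 0.32 and Mrpl36 by 0.26 on the log2 scale (limma adjusted p = 0.0135, 0.0104 and 0.0304). Mrpl12, which forms the flexible stalk that recruits translation factors and also binds the mitochondrial RNA polymerase, stood at 11.32 and 11.42 against 11.16 and 11.14 (-0.22, SE 0.0558, limma adjusted p = 0.0394). Mrpl10, which anchors that stalk, had no call (-0.08, limma adjusted p = 0.209), and neither had Mrpl11 at the stalk base (-0.11, limma adjusted p = 0.146). Mrpl3 fell by 0.22 (limma adjusted p = 0.0248). Mrpl10, Mrpl11 and Mrpl3 are named here after their values were seen.

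The large subunit genes that rose did so by at most 1.22-fold. Mrpl14, a conserved protein at the interface with the small subunit, stood at 9.89 and 9.94 in control RNAi and 10.21 and 10.21 in Npac RNAi (0.29, SE 0.0481, limma adjusted p = 0.014). Mrpl22 (0.25) and Mrpl23 (0.19), whose bacterial counterparts line the exit of the peptide tunnel, rose as well (limma adjusted p = 0.0301 and 0.0369). So did Mrpl57 (0.22), Mrpl52 (0.21) and Mrpl43 (0.18), which lack bacterial counterparts (limma adjusted p = 0.0304, 0.0464 and 0.038). With any 1 array left out these 6 lost their calls, but calls were lost over all genes too (shares given below). With spike-in scaling all 6 were below 0.

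The largest rises carried Mrps symbols. Over all genes 22.1% rose and 18.7% fell. Of the 29 genes with Mrps symbols, counted here as small subunit, 5 rose, 6 fell and 18 had no call (median -0.09). The highest differences belonged to the paralogs Mrps18a, Mrps18b and Mrps18c, which descend from bacterial ribosomal protein S18; in assembled ribosomes the products of Mrps18b and Mrps18c lie in the small subunit and that of Mrps18a in the large one, so the highest member is small subunit by symbol alone. Mrps18a stood at 10.14 and 10.07 in control RNAi and 10.47 and 10.57 in Npac RNAi (0.42, SE 0.0628, limma adjusted p = 0.0114). Mrps18b stood at 11.12 and 11.15 against 11.51 and 11.49 (0.36, SE 0.0465, limma adjusted p = 0.0077). Mrps18c stood at 11.63 and 11.69 against 11.87 and 11.97 (0.26, SE 0.0617, limma adjusted p = 0.0336).

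All 3 paralogs were thus higher on both Npac arrays than on both control arrays, each read by 1 probe set. With spike-in scaling each was below 0 (-0.12, -0.18 and -0.28), which its constant shift of 0.54 fixed in advance. Without each array in turn Mrps18b kept its call. That on Mrps18a was lost without control array 2 and without Npac array 2, and that on Mrps18c with any 1 array left out. Mrps34, which keeps the small subunit RNA stable, rose by 0.26 (limma adjusted p = 0.0176) and Mrps14 by 0.18 (limma adjusted p = 0.0418). Both were negative with spike-in scaling (-0.28 and -0.36).

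The small subunit genes that fell were led by Mrps21, at 10.29 and 10.30 in control RNAi and 9.71 and 9.73 in Npac RNAi (-0.57, SE 0.0456, limma adjusted p = 0.00299). Its second, dimmer probe set was called higher (0.58), and the mean of both gave 0.00603 with no call (limma adjusted p = 0.958). Mrps12, the counterpart of the bacterial protein S12 at the decoding centre, stood at 11.18 and 11.18 against 10.69 and 10.73 (-0.47, SE 0.0473, limma adjusted p = 0.00462). Mrps25, without a bacterial counterpart, stood at 10.90 and 10.95 against 10.50 and 10.46 (-0.45, SE 0.05, limma adjusted p = 0.00584). Both groups of each gene were well apart. Mrps33 (-0.29), Mrps9 (-0.28) and Mrps26 (-0.26) fell too (limma adjusted p = 0.0147, 0.0325 and 0.0183). Mrps36, listed by its symbol although its product is now placed in the 2-oxoglutarate dehydrogenase complex, had a difference of -0.03 (limma adjusted p = 0.638) and was named after its values were seen.

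**Figure D3:**
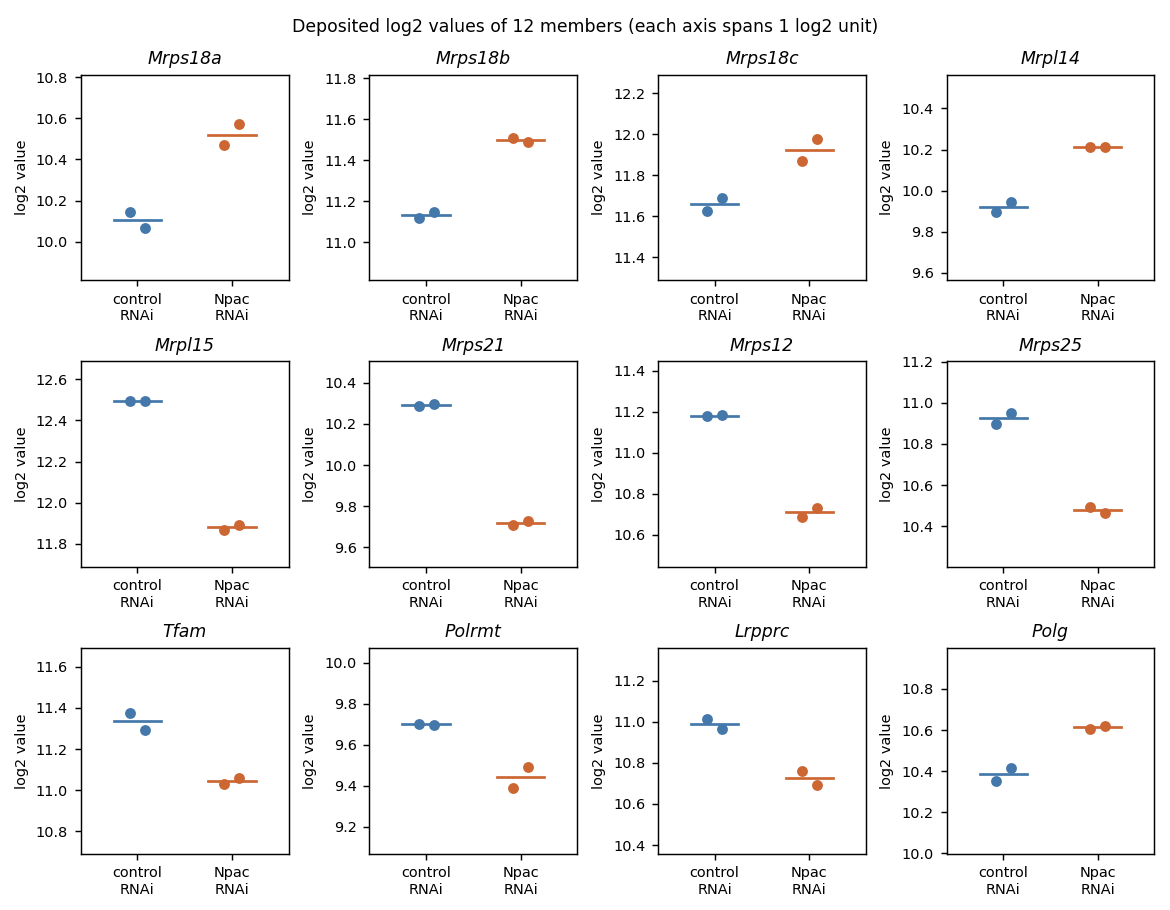
Deposited log2 values (vertical axes, each spanning 1 log2 unit) of 12 members on the 2 control RNAi and 2 Npac RNAi arrays; points are arrays and bars group means. In every panel the groups are apart, from -0.61 for Mrpl15 to 0.42 for Mrps18a, and the rises of Mrps18a, Mrps18b, Mrps18c, Mrpl14 and Polg have a negative sign with spike-in scaling.

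Splitting the ribosomal genes by ancestry, a grouping chosen after the values were seen, left both directions in every class. Of 28 large subunit genes with a bacterial counterpart 3 rose and 6 fell, and of 19 without one 3 rose and 2 fell. Of 16 genes counted as small subunit by symbol alone and with a bacterial counterpart 2 rose and 3 fell. Of 10 such genes without one 1 rose and 3 fell. Mrps18c counted among those with a counterpart, and Mrps18a, Mrps18b and Mrps36 were left out. Medians were -0.03, 0.03, -0.09 and -0.12 in that order, against -0.04 for all genes. Of all genes 22.1% rose and 18.7% fell.

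Of 7 genes that replicate or transcribe mitochondrial DNA, 2 fell and 2 rose, against 18.7% and 22.1% of all genes. Tfam stood at 11.38 and 11.30 in control RNAi and 11.03 and 11.06 in Npac RNAi (-0.29, SE 0.0539, limma adjusted p = 0.0185). Polrmt stood at 9.70 and 9.70 against 9.39 and 9.49 (-0.26, SE 0.0569, limma adjusted p = 0.0283). The partner of Polrmt in opening promoters, Tfb2m, had no call (-0.10, limma adjusted p = 0.197). Of these 3 transcription genes 2 were lower, whereas Mterf3, which also acts on transcription, was higher on the deposited values.

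Of the replication genes, 1 of 3 was called, against 40.8% of all genes. Polg, the catalytic subunit of the mitochondrial DNA polymerase, stood at 10.35 and 10.42 in control RNAi and 10.61 and 10.62 in Npac RNAi (0.23, SE 0.0506, limma adjusted p = 0.0284). Its accessory subunit gene Polg2 differed by 0.03 and the helicase gene Twnk by -0.12, neither with a call (limma adjusted p = 0.669 and 0.134). Mterf3, which restrains transcription initiation, rose by 0.19 (SE 0.0489, limma adjusted p = 0.0391). With spike-in scaling Polg and Mterf3 were at -0.31 and -0.35. Polg had no call after quantile normalization (0.15, limma adjusted p = 0.0814), median centring (0.09, limma adjusted p = 0.204) or cyclic loess (0.18, limma adjusted p = 0.063). Mterf3 had no call in these settings either, and both lost it with the mean of probe sets.

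Of the 2 genes acting on mitochondrial RNA, Lrpprc fell, and Tfb1m had no call on the probe set that stands for it. Lrpprc, which stabilises mitochondrial messenger RNAs, stood at 11.01 and 10.97 against 10.76 and 10.69 (-0.26, SE 0.0531, limma adjusted p = 0.0223). Tfb1m, the methyltransferase of the small subunit RNA, stood at 9.72 and 9.51 against 9.36 and 9.52, so that its groups overlapped (-0.17, limma adjusted p = 0.229). Its other probe set, also above the median level, was called lower (-0.32, limma adjusted p = 0.0252 over all probe sets), and Tfb1m was called lower after quantile normalization (-0.31), median centring (-0.31) and spike-in scaling (-0.71). Slirp, the binding partner of the Lrpprc protein and no member here, rose by 0.18 (limma adjusted p = 0.0398, named after its values were seen). It had no call after quantile normalization (0.15, limma adjusted p = 0.0619) or median centring (0.04, limma adjusted p = 0.465), and was at -0.36 with spike-in scaling.

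Among the 6 translation factors 1 fell, against 18.7% of all genes. Gfm1, the elongation factor that moves the ribosome along the messenger RNA, stood at 10.85 and 10.81 in control RNAi and 10.61 and 10.62 in Npac RNAi (-0.21, SE 0.0467, limma adjusted p = 0.0279). Its other probe set differed by 0.0372, and the mean of both by -0.0879, neither with a call (limma adjusted p = 0.698 and 0.245). Gfm2, its relative in ribosome recycling, had a difference of -0.16 (limma adjusted p = 0.0612). The factor that brings transfer RNAs to the ribosome, Tufm, and its exchange factor Tsfm differed by -0.08 and -0.07 (limma adjusted p = 0.25 and 0.269). The initiation factor genes Mtif2 and Mtif3 differed by 0.12 and 0.10 (limma adjusted p = 0.193 and 0.184). With 1 array left out the factors lost their calls, but calls were lost over all genes too (shares given below). The loss is therefore no result about the 15 factors.

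Promoters are shown for the 3 Mrps18 paralogs, Mrps21, Mrps12 and Tfam. The paralogs include the highest ribosomal members, Mrps21 and Mrps12 are the lowest that the promoter table holds, and Tfam packages mitochondrial DNA. Mrpl15, the lowest member, is not in that table. The 250 bases before each start are given, from RefSeq on GRCm38.p6, with matches to 4 short motifs in capitals. They lie at chr17:46110754-46111003 (plus strand), chr17:35916441-35916690 (minus), chr5:100798509-100798758 (plus), chr3:95871515-95871764 (minus), chr7:28741822-28742071 (minus) and chr10:71238045-71238294 (minus), in the order printed.
Mrps18a: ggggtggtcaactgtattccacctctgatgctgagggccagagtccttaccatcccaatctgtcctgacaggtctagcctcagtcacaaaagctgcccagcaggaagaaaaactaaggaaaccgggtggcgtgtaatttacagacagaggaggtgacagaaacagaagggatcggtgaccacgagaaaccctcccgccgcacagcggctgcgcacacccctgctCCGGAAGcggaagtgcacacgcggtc
Mrps18b: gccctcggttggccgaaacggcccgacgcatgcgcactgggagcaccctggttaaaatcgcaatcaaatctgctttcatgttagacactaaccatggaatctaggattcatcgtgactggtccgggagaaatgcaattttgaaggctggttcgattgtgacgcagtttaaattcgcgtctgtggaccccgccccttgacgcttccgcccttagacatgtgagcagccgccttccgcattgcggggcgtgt
Mrps18c: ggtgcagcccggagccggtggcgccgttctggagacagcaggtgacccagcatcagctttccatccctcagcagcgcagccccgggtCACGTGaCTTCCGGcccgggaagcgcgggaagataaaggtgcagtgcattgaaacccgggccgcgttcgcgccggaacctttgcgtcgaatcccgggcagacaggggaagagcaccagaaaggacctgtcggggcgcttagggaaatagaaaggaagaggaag
Mrps21: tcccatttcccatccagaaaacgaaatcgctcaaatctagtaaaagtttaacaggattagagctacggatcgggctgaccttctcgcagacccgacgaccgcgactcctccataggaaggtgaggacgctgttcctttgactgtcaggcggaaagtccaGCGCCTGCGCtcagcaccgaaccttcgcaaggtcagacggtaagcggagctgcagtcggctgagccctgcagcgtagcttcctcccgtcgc
Mrps12: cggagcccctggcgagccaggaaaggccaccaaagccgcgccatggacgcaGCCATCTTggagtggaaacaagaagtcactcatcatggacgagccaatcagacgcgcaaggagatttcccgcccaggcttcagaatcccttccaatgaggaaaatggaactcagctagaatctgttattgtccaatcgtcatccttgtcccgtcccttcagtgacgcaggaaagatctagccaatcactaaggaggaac
Tfam: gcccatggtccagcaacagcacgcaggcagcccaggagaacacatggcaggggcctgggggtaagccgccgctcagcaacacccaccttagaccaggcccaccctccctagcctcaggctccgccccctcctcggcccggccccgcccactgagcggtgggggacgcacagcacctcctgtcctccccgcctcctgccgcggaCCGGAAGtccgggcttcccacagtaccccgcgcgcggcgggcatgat

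The motifs, searched on both strands, were CCGGAAG (the ETS core, bound by Gabpa), GCGCA and GCGC with 1 base of any kind between them (NRF1), AAGATGGC (YY1) and CACGTG (the E-box, bound by Myc); a match is a description and not a site. The printed capitals are an ETS core in Mrps18a and Tfam, an E-box followed by an ETS core in Mrps18c, an NRF1 match in Mrps21 and a YY1 match in Mrps12. The printed stretch of Mrps18b holds 0 matches. Searches covered 250 bases before to 50 after the start, and the matches after the start, which are not printed, were an ETS core in Mrps18b, Mrps21 and Mrps12 and a YY1 match in Mrps18a. The table held 87 promoters of 80 members. The ETS core occurred in 37.9% of them, against 13.0% of the promoters of all genes tested and 8.86% of all promoters in the table. The NRF1 motif occurred in 16.1% (7.43% and 4.60%), the YY1 motif in 13.8% (3.38% and 2.75%) and the E-box in 8.05% (8.72% and 7.15%).

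By direction, the ETS core was present in 8 of 11 promoters of members that rose and 9 of 17 of those that fell. Of members without a call it was present in 16 of 59 promoters. Among all genes tested the shares were 14.4%, 11.9% and 12.8%. The 59 promoters belong to 52 genes, 16 of them with the core, whereas each called member had 1 promoter. These differences were not tested. The genes of the cognate factors were measured too. Gabpa stood at 11.77 and 11.70 in control RNAi and at 11.41 and 11.48 in Npac RNAi (-0.28, limma adjusted p = 0.0216), whereas its partner gene Gabpb1 rose by 0.37 (limma adjusted p = 0.0144; -0.17 with spike-in scaling). Nrf1 fell by 0.21 (limma adjusted p = 0.0399), but its probe set with the largest interquartile range gave 0.29. Yy1 rose by 0.25 (limma adjusted p = 0.0268), less than the spike-in difference of 0.54, and was named after its values were seen. The growth regulator Myc rose 2.14-fold, from 8.50 and 8.29 to 9.43 and 9.56 (1.10, SE 0.0927, limma adjusted p = 0.0033).

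Regulators of nuclear genes for mitochondria gave 5 higher and 2 lower of 13 measured (median 0.09), against 22.1% and 18.7% of all genes. After median centring the counts were 2 and 6, against 15.6% and 39.4% of all genes. With spike-in scaling they were 1 and 11, against 4.98% and 81.9% of all genes. Both directions also occurred in the other machinery of mitochondrial gene expression. Of 22 aminoacyl-tRNA synthetase and amidotransferase genes 2 rose and 5 fell. Mars2, a dim gene, rose by 0.74 and Hars2 by 0.25, and Gatb, a subunit of the amidotransferase that makes glutaminyl-tRNA, fell by 0.49 and Ears2 by 0.37 (limma adjusted p = 0.0257, 0.0233, 0.0105 and 0.00715). Of 28 assembly and RNA modification genes 4 rose and 4 fell, led by Trmt61b (0.34), Ddx28 (0.23), Rbfa (-0.37) and Mrm1 (-0.28).

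Of 24 nucleoid and RNA processing genes 5 rose and 3 fell. The elongation factor of mitochondrial transcription, Tefm, rose by 0.42 and the poly(A)-removing phosphodiesterase gene Pde12 by 0.36, while Fastkd5 fell by 0.30 and the single-stranded DNA binding protein gene Ssbp1 by 0.21 (limma adjusted p = 0.00823, 0.0156, 0.0196 and 0.0486). Of 4 release and recycling genes Guf1, a dim gene, fell by 0.41 (limma adjusted p = 0.0127). Together the 4 lists gave 11 higher and 13 lower of 78 (median 0.01), or 14.1% and 16.7% against 22.1% and 18.7% of all genes, so the lower share was near that of all genes. Of 4 ribosomal genes with other symbols, Chchd1 rose by 0.49 and Dap3 and Ptcd3 fell by 0.17 and 0.27 (limma adjusted p = 0.0057, 0.0448 and 0.0162). With spike-in scaling Hars2, Trmt61b, Ddx28, Tefm, Pde12 and Chchd1 were below 0.

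Cytosolic ribosomal proteins and the respiratory chain are the closest other machineries. Of 43 cytosolic ribosomal protein genes with a single-symbol probe set, limma called 0 higher and 9 lower (median -0.05); at an unadjusted p under 0.05 the counts were 0 and 11, and the fit without moderation called 0 and 7. The 20.9% called lower was near the 18.7% of all genes, whereas 22.1% of all genes were higher. Of 81 respiratory chain and ATP synthase genes 11 rose and 12 fell (median 0.01), or 13.6% and 14.8%. Neither difference from the members was tested.

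Several members share a start region with a gene on the other strand. Among 30 members, a second gene began within 1000 bases in the opposite direction on GRCm38.p6, which was used here for neighbourhood. The partner was measured in 29 of these pairs, and in 2 both genes were called. Of all genes tested 40.8% were called. Such pairs were not counted over all genes, so the 2 are no result about the members. Mrpl14 and Tmem63b both rose (0.29 and 0.38), and Mrpl50 fell while Zfp189 rose (-0.38 and 0.27). With spike-in scaling all 4 were below 0 (Mrpl14 -0.25, Tmem63b -0.16, Mrpl50 -0.92 and Zfp189 -0.27), and the mean of its probe sets gave Tmem63b 0.11 with no call. After median centring Mrpl14 and Zfp189 had no call (limma adjusted p = 0.0617 and 0.109), nor had Zfp189 after quantile normalization (limma adjusted p = 0.0577). Tmem63b and Mrpl50 kept theirs in both. The 2 pairs within the list, each counted from either side, were Mrpl43 (0.18) with Twnk (-0.12) and Mrpl46 (0.14) with Mrps11 (-0.20). Mrps12 began beside Sars2, the serine synthetase gene of the same pathway (-0.47 and -0.12). The 2 called pairs and these partners were named after their values were seen.

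Further probe sets of the same gene mostly had its sign where the signal was bright. In 51 members more than 1 probe set carried the symbol, with 92 besides the one that stood for the gene. Of 48 such probe sets at or above the median level 42 had the same sign as the gene, and of 44 dimmer ones 29 did. Mrpl28 was lower by 0.39, 0.44 and 0.48 in its 3 probe sets. Mrpl15 had 8, of which 4 were lower by 0.52 to 0.67 with a call and 4 differed by -0.25 to -0.01 without one. Mrps21 was the member with calls in both directions: the one that rose by 0.58 had a mean of 6.55. Polg rose in 2 of 3 probe sets (0.23 and 0.34) and stood at -0.09 in the third.

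**Figure D4:**
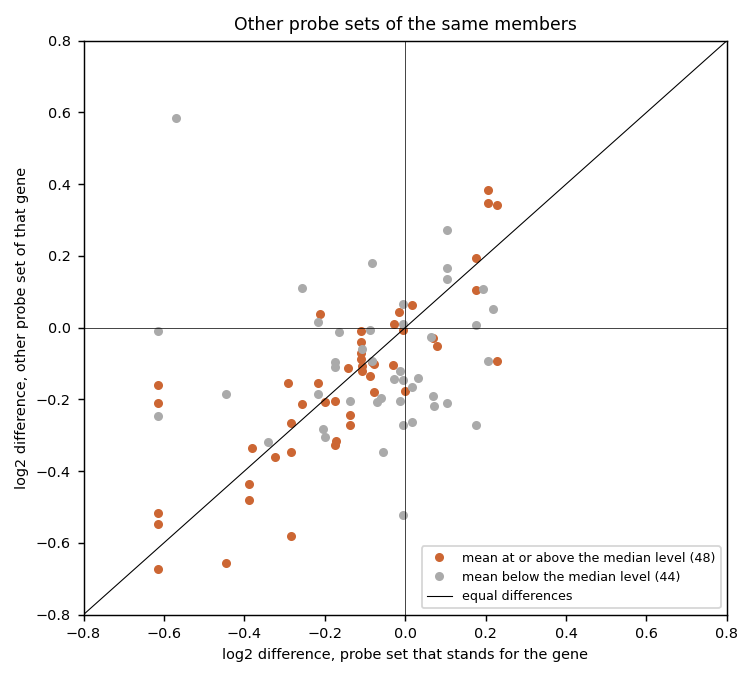
Log2 difference of each further probe set (vertical axis) against that of the probe set that stands for its gene (horizontal axis), both Npac RNAi minus control RNAi. Orange points are the 48 probe sets at or above the median level, grey points the 44 below it; the grey point at 0.58 is the second probe set of Mrps21.

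Markers of cell identity moved at the same time. The markers of pluripotent stem cells were bright in control RNAi, and 8 of 10 were lower in Npac RNAi (median -0.42), with Pou5f1 lower by 1.17. Their summed linear level was 81573 to 81889 on the control arrays and 63091 to 63788 on the Npac arrays. Of 10 trophectoderm markers limma called 9 higher and 0 lower (median 1.95; 10 and 0 at an unadjusted p under 0.05, 6 and 0 called without moderation), and their summed level was 10260 to 10385 in control RNAi and 43055 to 43595 in Npac RNAi. Krt8 and Krt18, keratins of simple epithelia, rose by 2.06 and 2.15. Of 11 fibroblast markers 1 was higher and 2 lower (median -0.05), with a summed level of 1060 to 1165 in control RNAi and 1129 to 1133 in Npac RNAi. The called ones were Pdgfrb (0.79), Pdgfra (-0.49) and the dim Col3a1 (-0.20), with limma adjusted p = 0.004, 0.0163 and 0.0416. Of those without a call, the collagen gene Col1a1 had group means of 5.59 and 5.54 and Dcn of 5.11 and 5.06. In these bulk samples fewer cells of a type and less RNA per cell cannot be told apart. The part of the marker shifts in the changes of the mitochondrial genes was not tested.

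**Figure D5:**
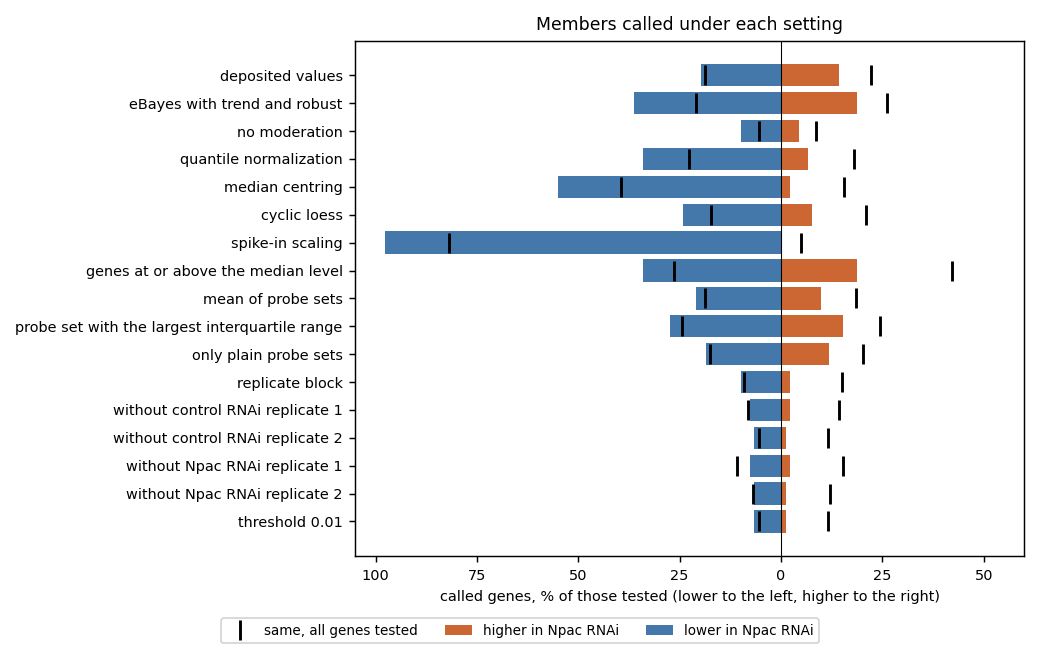
Share of members called lower (blue, to the left) and higher (orange, to the right) in percent of those tested, for each setting; black ticks give the same for all genes tested. The orange bar is shorter than its tick in each of the 17 settings drawn and is 0 with spike-in scaling.

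The share of members called lower was above that of all genes under most settings and the share called higher below it. The excess of lower calls was slight on the deposited values, and with the plain probe sets and the replicate block described below. In most of the fits that left out an array, the share called lower was below that of all genes. These differences in share were not tested. The trend and robust options called 17 higher and 33 lower, against 26.1% and 20.9% of all genes (47.0% in all). Without moderation 4 were higher and 9 lower, against 8.56% and 5.46% of all genes. Quantile normalization gave 6 higher and 31 lower (17.9% and 22.6% of all genes, 40.5% in all), and cyclic loess 7 and 22 (21.0% and 17.3%, 38.3% in all). Median centring called 55.1% and spike-in scaling 86.9% of all genes.

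Other choices of probe set moved counts and single genes. The mean of a gene's probe sets gave 9 higher and 19 lower (18.6% and 18.7% of all genes, 37.3% in all), and the one with the largest interquartile range 14 and 25 (24.3% and 24.4%, 48.7% in all). Plain probe sets, which are not marked as shared between transcripts, covered 76 members and gave 9 and 14 (20.2% and 17.6%, 37.8% in all). A threshold of 0.01 left 1 and 6 (11.6% and 5.57%, 17.2% in all). A block on the replicate number left 2 and 9 (14.9% and 9.15%, 24.0% in all), and pairing each array with the other number, an alternative added after seeing the data, 7 and 17 (20.6% and 18.0%, 38.7% in all).

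The calls that held without each array in turn were falls but for Mrps18b, whose sign is negative with spike-in scaling. Of the 31 called members 7 kept their call without each array in turn: Mrpl15, Mrpl28, Mrpl50, Mrps12, Mrps21, Mrps25 and Mrps18b. Mrpl28, Mrpl50, Mrps12 and Mrps25 were also called lower in each of the 15 other planned fits that held them. Mrps12 has no plain probe set. Spike-in scaling and median centring lowered every difference by a constant, so these falls were bound to stay negative there. Those fits are no test of the falls. The trend and robust options, no moderation, the median level filter and the replicate block left the differences unchanged and altered only the test. Without control array 1 there were 2 members higher and 7 lower (14.4% and 8.20% of all genes, 22.6% in all), and without Npac array 1 also 2 and 7 (15.2% and 10.8%, 26.0% in all). Without control array 2 there were 1 and 6 (11.5% and 5.43%, 17.0% in all), and without Npac array 2 also 1 and 6 (12.1% and 6.82%, 18.9% in all). Without moderation of the variances 12 of the 31 calls remained.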

How the data were processed

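RNA was measured in 4 samples on single-channel Affymetrix arrays. Per the submitters' processing notes the authors used RMA, which corrects background, equalises arrays and summarises probes into probe sets; no version or software is named there. Deposited numbers are log2 values, a scale inferred from their range (2.78 to 15.05), so any change shared by most transcripts was removed beforehand. Of 45101 probe sets, 64 were controls, 34945 carried 1 gene symbol, 932 carried several and the rest were unnamed. Entrez identifiers gave current symbols from the RefSeq table of GRCm38.p6 (34741 matched). The probe set with the highest mean stood for each of 18193 genes, without a filter on dim genes. Groups followed the sample titles.

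The 2 groups were tested by limma (version 3.58.1, under R 4.3.3; lmFit and eBayes), with Benjamini-Hochberg adjustment over all genes and a call at an adjusted p under 0.05. Residual degrees of freedom were 2 and prior ones 2.28; the procedure was tested on simulated data. The number of arrays limits the precision. Members and lists were chosen with earlier results of these data known, and lists are described by counts and medians, with no set test. Named genes were Glyr1, all 15 factors, up to 6 called genes per direction with groups apart in each subunit by size, Mrpl12, Mrps12, the Mrps18 paralogs, up to 2 called genes per direction in each related list, and members with probe sets called in both directions. Alternatives covered moderation, normalization, spike-in scaling, dim genes, probe set choice, threshold, replicate block and each array left out.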

Additional observations from a re-analysis of the deposited data

Results flagged for a closer look

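The 24 poly-A spike-in probe sets, which measure no gene of the cells and entered only the alternative scaling, read above their control level on the Npac RNAi arrays: the mean rose from 8.66 to 9.20, a difference of 0.54, and all 24 were higher.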

How the results depend on the processing

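Against 31 members called on the deposited values (13 higher, 18 lower), the trend and robust options gave 50 (33 lower), no moderation 13 (4 and 9), the median level filter 48 (31 lower), and a threshold of 0.01 gave 7 (1 and 6). Quantile normalization gave 6 higher and 31 lower, cyclic loess 7 higher, median centring 52 (2 and 50) and spike-in scaling 89 (0 and 89). Leaving out 1 array gave 7 to 9 (1 or 2 higher, 6 or 7 lower). Over all genes, 7425 calls became 2551 without moderation, 15801 with spike-in scaling, 3129 at 0.01 and 3088 to 4731 with 1 array left out. The 24 calls in the related lists became 4 without moderation, 74 with spike-in scaling, 2 at 0.01 and 2 to 7 with 1 array left out. The members' median of -0.04 became -0.13 (quantile), -0.18 (centring), -0.087 (cyclic loess), -0.57 (spike-in), -0.074 (mean of probe sets) and -0.11 (probe set with the largest interquartile range), and -0.0468 to -0.0434 with 1 array left out.

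With a replicate block 11 members (2 higher, 9 lower), 4 related genes and 4375 of all genes were called. The numbers share no stated origin: deviations from the group means of same-numbered arrays correlated at -0.17. A crossed pairing, added after seeing the data, gave 24 members (7 higher, 17 lower) and 7033 genes.

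Spike-in scaling turned Polg (-0.31), Polg2 (-0.51), Mtif2 (-0.42), Mtif3 (-0.44), Mterf3 (-0.35), Mrpl14 (-0.25), Mrpl22 (-0.29), Mrpl57 (-0.32), Mrpl52 (-0.33), Mrpl23 (-0.35), Mrpl43 (-0.36), Mrps18a (-0.12), Mrps18b (-0.18), Mrps18c (-0.28), Mrps34 (-0.28) and Mrps14 (-0.36). It also turned Hars2 (-0.29), Trmt61b (-0.20), Ddx28 (-0.31), Tefm (-0.12), Pde12 (-0.18), Gabpb1 (-0.17), Chchd1 (-0.054), Slirp (-0.36), Tmem63b (-0.16) and Zfp189 (-0.27), by a constant shift of -0.54. Other probe set choices turned Gfm1 (0.0372), Mrps21 (0.00603) and Nrf1 (0.29). The cause of the other changes was not tested.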
